A study of Apis mellifera with 24 samples.

Results

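The miR-2, miR-13 and miR-71 miRNAs of the honey bee were examined in the ovaries of queens. The members were the rows of the deposited miRNA table named ame-miR-2, ame-miR-13a, ame-miR-13b or ame-miR-71, with or without a copy number or an arm suffix. This name rule used no measured value and found 4 of 178 miRNAs, and all 4 were among the 106 miRNAs that passed the count filter of at least 10 counts in at least 3 libraries. Ovaries came from 12 sister queens of Apis mellifera ligustica, reared from 1 source colony, with 3 queens in each of 4 groups. Egg-laying recovery queens had been caged for 7 days, were then released, and were laying again at collection. Egg-laying inhibited queens had been caged for 7 days inside their own hive. Egg-laying queens were laying after instrumental insemination, and virgin queens had not been inseminated. All mated queens received semen of the same source and amount. Each queen gave 1 ovary sample, from which 1 small RNA library and 1 mRNA library were made. Inhibited and recovery queens were collected at the end of their treatment and may have been older than egg-laying queens, so age and treatment cannot be told apart. Virgin queens differed from mated queens in the insemination procedure and may have differed in age at collection. These cannot be told apart from ovary activation. Because all queens were sisters of 1 colony, p-values measure the spread between queens of this source only.

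miRNAs are short RNAs that guide an Argonaute protein to matching mRNAs, which are then translated less or broken down, and the bases near the 5′ end of the miRNA, called the seed, do most of the matching. miR-2 and miR-13 belong to one invertebrate family whose members share their seed and, in Drosophila, act on K-box sites and limit pro-apoptotic genes such as reaper, grim and sickle. In a cockroach this family lowers Kr-h1, a transcription factor that responds to juvenile hormone, and in the silkworm miR-2 acts on awd and fng, which serve wing development. miR-71 is no member of that family. It is missing from Drosophila and vertebrates, lies beside miR-2 genes in many invertebrates, and in C. elegans is known for extending lifespan.

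In the RefSeq gene table of the assembly Amel_HAv3.1, the members had 6 hairpin genes on 1 chromosome, LG1. Their order there was Mir2-2, Mir2-1, Mir13b, Mir13a, Mir2-3 and Mir71, so that ame-miR-2 can come from 3 hairpins, while the deposited table gives it 1 row. A 7th hairpin, Mir2b, lies among them and overlaps Mir2-1. All 7 lie inside the protein-coding gene LOC726544. The deposited values were made on the older build Amel_4.5, so these positions served only for order and neighbours. Mature miR-2, miR-13a, miR-13b and miR-2b are close relatives, and how reads that match more than 1 of them were assigned is not given in the sources used here. The split of reads between these miRNAs, and from miR-2 to its 3 hairpins, is therefore uncertain.

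Library totals of miRNA counts were 267835 to 430457 in recovery queens, 190236 to 279188 in inhibited queens, 128749 to 347725 in egg-laying queens and 1510420 to 2473711 in virgin queens. Each virgin library was thus deeper than each mated library, so depth and mating cannot be told apart. The members were well covered at every depth. The smallest member count was 463, for miR-13a in egg-laying queen 2, which is 0.360% of that library (95% Wilson interval 0.328% to 0.394%, counting error only). Virgin queen 2 stood apart from the other virgin queens. Its root mean square difference of log2 CPM over the 106 miRNAs was 0.84 to virgin queen 1 and 0.97 to virgin queen 3, whereas virgin queens 1 and 3 differed by 0.34 and the mated queens of a group by 0.44 to 0.73. Tests of the members that rest on this queen are given with and without it. The SDs within groups and the distances between profiles are given only with it. Germline mRNAs were present in all queens. Of 5 listed genes 3 were matched, vas, nanos and aub, with sums of 394 to 474 FPKM in mated queens and 174 to 283 FPKM in virgin queens. Of these, vas had 220 to 311 FPKM in mated queens and 87.2 to 174 FPKM in virgin queens. Between these groups nanos (90.9 to 180 and 82.9 to 106 FPKM) and aub (1.16 to 16.1 and 2.72 to 5.82 FPKM) overlapped. Muscle RNA differed between the same groups. The muscle miRNA miR-1 had 1391 to 2477 normalized CPM in mated queens and 23304 to 30378 in virgin queens, and miR-133 had 38.0 to 102 and 108 to 301 normalized CPM in these groups. Of 5 listed muscle mRNAs, 3 were matched, TpnT, Mlc2 and myophilin, which together had 95.5 to 143 FPKM in mated queens and 316 to 595 FPKM in virgin queens. For the fat body 4 of 5 listed mRNAs were matched, Vg, Hex110, Hex70a and Tsf1, with sums of 22.4 to 83.2 FPKM in mated queens and 97.5 to 424 FPKM in virgin queens. The nervous system miRNA miR-124 had at most 3 counts in mated queens and at most 4 in virgin queens. The part of muscle, fat body and other non-germline RNA in the differences between mated and virgin queens was not tested. In whole ovaries, fewer cells of a type and less RNA per cell cannot be told apart.

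All 4 miRNAs were abundant in every ovary. Together they took 4.58% ± 0.71 of all miRNA counts in recovery queens, 4.14% ± 0.37 in inhibited queens, 4.57% ± 0.28 in egg-laying queens and 3.64% ± 0.97 in virgin queens (SD, n = 3 each). Levels below are counts scaled to a common library total after TMM normalization, which sets libraries to each other by the bulk of their miRNAs, and are called normalized CPM here. They rank read counts and not molecules, since miRNAs can differ in how well they are cloned. By the mean over the 12 queens the order was miR-2 with 20297 ± 1505, miR-13b with 11825 ± 4570, miR-71 with 7002 ± 2145 and miR-13a with 3075 ± 476 normalized CPM (SD, n = 12). miR-13a was the lowest of the 4 in each queen, and miR-2 was the highest in each queen apart from virgin queen 2, where miR-13b was above it. miR-2 ranked 7 to 12 among the 106 miRNAs, miR-13b ranked 9 to 22, miR-71 ranked 18 to 28 and miR-13a ranked 31 to 38.

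miR-2, the most abundant of the family, was nearly level across queens with TMM. It had 20239, 21870 and 18708 normalized CPM in the recovery queens and 24096, 20964 and 20243 in the inhibited queens. It had 20101, 20304 and 19719 normalized CPM in the egg-laying queens, against 18647, 19112 and 19557 in the virgin queens. The highest queen was thus 1.29 times the lowest, and the 3 egg-laying queens lay above the 3 virgin queens by a narrow margin. Such a lack of overlap was seen for 73.6% of all 106 miRNAs in that comparison. Within groups the SD of miR-2 on the log2 scale was 0.089, the smallest of the 106 miRNAs (median 0.33). This rank depends on the scaling, and with library size only the SD was 0.14, rank 6 from the smallest. The level profile depends on it too, since deposited TPM of miR-2 ran from 14253 in virgin queen 1 to 24980 in inhibited queen 1.

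miR-13b, from a hairpin of the same family, varied far more. It had 9109, 16983 and 13859 normalized CPM in the recovery queens and 10334, 8159 and 9760 in the inhibited queens. It had 8052, 14026 and 7916 normalized CPM in the egg-laying queens, against 11518, 23192 and 8997 in the virgin queens. Values were high in recovery queens 2 and 3, egg-laying queen 2 and virgin queen 2, and each comparison between groups showed overlap. The highest value, that of virgin queen 2, was 2.93 times the lowest, and the SD within groups was 0.49 on the log2 scale, rank 81 of 106 from the smallest.

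miR-71, the member outside the family, had 5777, 7440 and 10076 normalized CPM in the recovery queens and 5770, 5311 and 5018 in the inhibited queens. It had 6099, 5528 and 7120 normalized CPM in the egg-laying queens, against 7146, 12277 and 6460 in the virgin queens. The 3 inhibited queens lay close together and just below all 3 recovery queens, which held for 18.9% of all tested miRNAs between these groups. The virgin queens spread widely because of virgin queen 2. The SD within groups was 0.34 on the log2 scale, rank 54 of 106.

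miR-13a, the least abundant member, had 2967, 3482 and 3475 normalized CPM in the recovery queens and 3631, 3179 and 3594 in the inhibited queens. It had 2236, 3191 and 2335 normalized CPM in the egg-laying queens, against 3315, 2881 and 2616 in the virgin queens. Egg-laying queens 1 and 3 gave the lowest values, but egg-laying queen 2 lay within the range of the inhibited queens. The SD within groups was 0.18 on the log2 scale, rank 21 of 106.

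**Figure D1:**
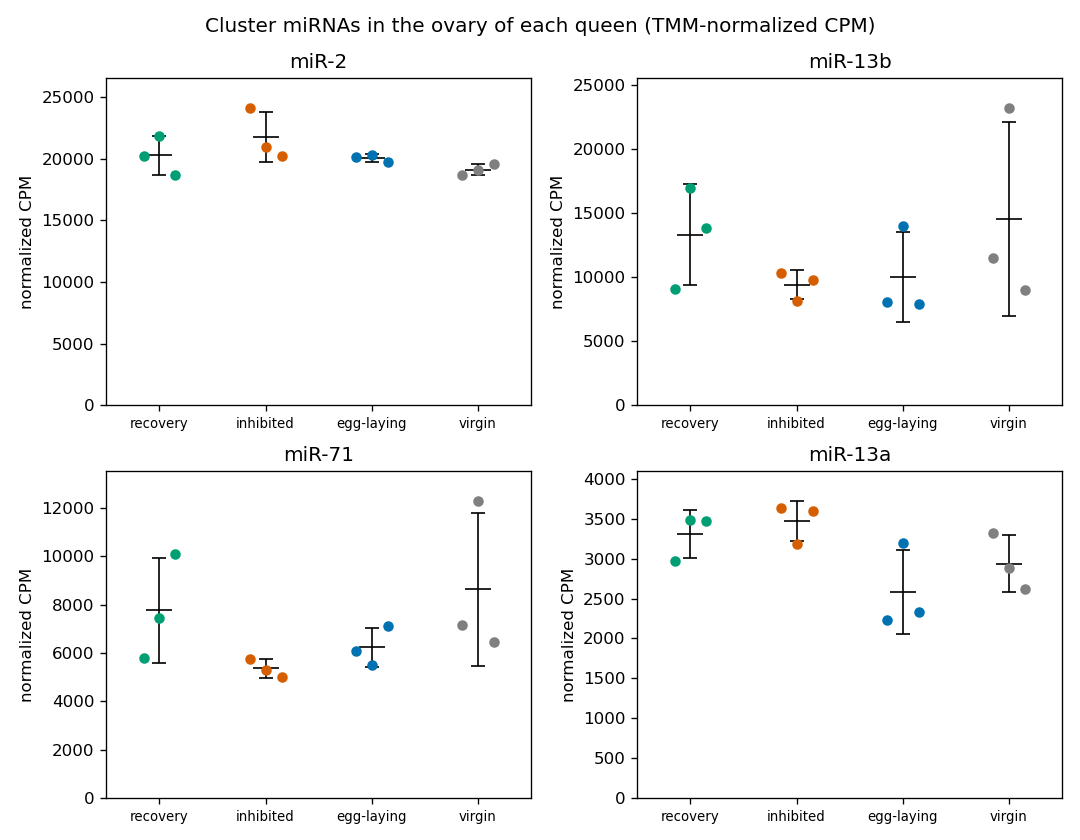
Normalized CPM (linear axis from 0, TMM) of miR-2, miR-13b, miR-71 and miR-13a in the ovaries of recovery, inhibited, egg-laying and virgin queens, with 1 point per queen and a line with bars for the mean ± SD (n = 3). miR-2 stays between 18647 and 24096 in the 12 queens, while miR-13b runs from 7916 to 23192 and miR-71 from 5018 to 12277, each with its highest value in virgin queen 2.

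Ovary activation was addressed by egg-laying queens vs. virgin queens, and mating more broadly by all 9 mated queens vs. virgin queens, as the mean of the 3 mated groups minus the virgin group. With edgeR and TMM no member was differentially expressed in either comparison, while most other miRNAs were. In egg-laying vs. virgin queens edgeR called 0 of 4 members at an adjusted p under 0.05, against 71.7% of all 106 miRNAs, of which 36 were up-regulated and 40 down-regulated. At an unadjusted p under 0.05 it called 0 members and 78 of all 106 miRNAs. DESeq2 called 0 members after adjustment, against 34 miRNAs called higher and 42 called lower, and 1 member before adjustment. In mated vs. virgin queens edgeR called 0 of 4 members, against 78.3% of all miRNAs. At an unadjusted p under 0.05 it called 1 member and 85 of all miRNAs. DESeq2 called 1 member, against 35 miRNAs called higher and 47 called lower. The changes of the members were also small beside those of the other miRNAs. The median absolute log2 change was 0.32 over the members and 1.15 over all miRNAs in egg-laying vs. virgin queens, and 0.27 and 1.07 in mated vs. virgin queens.

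The member that came nearest to a call was miR-71, which averaged 6460 ± 1574 normalized CPM in mated queens (SD, n = 9) and 8628 ± 3179 in virgin queens (SD, n = 3). Its log2 change in mated vs. virgin queens was -0.43 (95% interval -0.86 to -0.01, unadjusted p = 0.047, adjusted p = 0.060, edgeR). With all queens kept, this change passed with RLE size factors (-0.53, adjusted p = 0.017, edgeR) and with DESeq2 (-0.53, adjusted p = 0.018). It also passed with no count filter (-0.55, adjusted p = 0.012, edgeR) and with at least 100 counts (-0.44, adjusted p = 0.037, edgeR). With library size only it did not pass (-0.019, adjusted p = 0.94, edgeR). The value also depended on virgin queen 2. Without it the log2 change of miR-71 was -0.11 (adjusted p = 0.54), and without virgin queen 1, virgin queen 3 or recovery queen 3 it was -0.58, -0.62 and -0.51 and passed the threshold (adjusted p = 0.035, 0.016 and 0.026). In egg-laying vs. virgin queens its log2 change was -0.46 (95% interval -1.0 to 0.07, adjusted p = 0.11). This change passed with RLE size factors (-0.54, adjusted p = 0.0499, edgeR) and with no count filter (-0.57, adjusted p = 0.047, edgeR). It was -0.13 without virgin queen 2 (adjusted p = 0.57) and -0.64, past the threshold, without virgin queen 3 (adjusted p = 0.036).

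miR-13b showed the same dependence on virgin queen 2. Its log2 change was -0.43 in mated vs. virgin queens (95% interval -1.02 to 0.15, adjusted p = 0.16) and -0.54 in egg-laying vs. virgin queens (95% interval -1.28 to 0.20, adjusted p = 0.17). Without virgin queen 2 these values were 0.047 and -0.057. Without virgin queen 3 they were -0.71 and -0.81, past the threshold (adjusted p = 0.025 and 0.035, edgeR).

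miR-2 and miR-13a had the narrowest intervals. In mated vs. virgin queens the log2 change of miR-2 was 0.11 (95% interval -0.11 to 0.33, adjusted p = 0.32), which bounds it to between 0.93 and 1.26 times the virgin level under this scaling. That of miR-13a was 0.075 (95% interval -0.22 to 0.37, adjusted p = 0.61). In egg-laying vs. virgin queens miR-2 gave 0.069 (95% interval -0.20 to 0.34) and miR-13a gave -0.19 (95% interval -0.55 to 0.18).

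The scaling of the libraries decided what could be said of miR-2, miR-13a and miR-71 against virgin queens. With library size only, the median log2 change of all tested miRNAs in mated vs. virgin queens was 0.31, against -0.12 with TMM. With library size only, 75.5% of all miRNAs were called in mated vs. virgin queens and 63.2% in egg-laying vs. virgin queens. miR-2 and miR-13a were then called higher in mated queens, with log2 changes of 0.54 and 0.50 (adjusted p = 0.0014 and 0.0037), and miR-13b and miR-71 changed by -0.024 and -0.019 (adjusted p = 0.94 for both). The deposited TPM values, which are counts per library total, gave the same picture. miR-2 had 17646 to 24980 TPM in mated queens and 14253 to 15911 TPM in virgin queens, and miR-13a had 2627 to 3764 TPM in mated queens and 2128 to 2534 TPM in virgin queens. A scaling moves all miRNAs nearly alike, so places relative to the median of all miRNAs changed little by construction. Under the 5 scalings tried, miR-2 lay 0.22 to 0.24 and miR-13a 0.18 to 0.20 above that median in mated vs. virgin queens, and miR-13b lay 0.26 to 0.33 and miR-71 0.28 to 0.33 below it. miR-13b and miR-71 were nearly equal, and which of them was lower depended on the scaling.

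**Figure D2:**
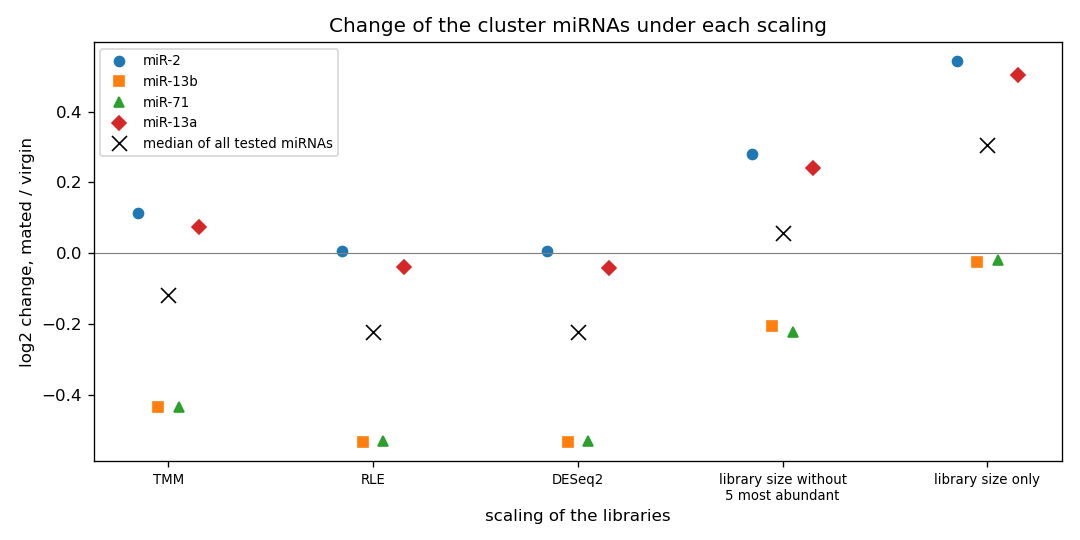
Log2 change of each cluster miRNA in mated vs. virgin queens (vertical axis) under 5 scalings of the libraries (horizontal axis), with a cross for the median of all tested miRNAs and no error bars. All points move up together with library size only, where the median is 0.31 and miR-2 and miR-13a reach 0.54 and 0.50, and in each scaling miR-2 and miR-13a lie above the median and miR-13b and miR-71 below it.

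Oviposition inhibition, oviposition recovery and the return to the egg-laying state were addressed among the mated queens, whose groups are shared between the comparisons. Few miRNAs of any kind differed here. In inhibited vs. egg-laying queens edgeR called 0 of 4 members, against 0% of all miRNAs, with 1 member and 13 miRNAs at an unadjusted p under 0.05, and DESeq2 called 0 members after adjustment and 1 before. In recovery vs. inhibited queens 0 members were called by either tool, against 0.943% of all miRNAs (1 miRNA, lower). At an unadjusted p under 0.05 there were 0 members by either, and 6 miRNAs by edgeR. In recovery vs. egg-laying queens 0 members were called by either tool, against 0% of all miRNAs. At an unadjusted p under 0.05 there were 0 members and 8 miRNAs by edgeR, and 1 member by DESeq2. For inhibited vs. laying queens, laying queens were taken as egg-laying and recovery queens with equal weight per group. There 0 members were called by either tool, against 0.943% of all miRNAs (1 miRNA, higher). At an unadjusted p under 0.05 there were 0 members by either, and 13 miRNAs by edgeR. Counts over all miRNAs by DESeq2 in these 4 comparisons are not given here.

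Among these comparisons miR-13a had the lowest unadjusted p. It averaged 3468 ± 251 normalized CPM in inhibited queens and 2587 ± 525 in egg-laying queens (SD, n = 3 each), a log2 change of 0.42 (95% interval 0.06 to 0.79, unadjusted p = 0.026, adjusted p = 0.29, edgeR). In recovery queens, with 3308 ± 295 normalized CPM (SD, n = 3), its log2 change was 0.36 vs. egg-laying queens (95% interval -0.01 to 0.72, adjusted p = 0.64) and -0.068 vs. inhibited queens (95% interval -0.43 to 0.30, adjusted p = 0.93). With library size only the values vs. egg-laying queens were 0.24 for inhibited and 0.16 for recovery queens. Recovery and inhibited queens thus had neighbouring levels of miR-13a, and neither group was separated from egg-laying queens after adjustment.

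miR-71 averaged 7764 ± 2168 normalized CPM in recovery queens and 5366 ± 379 in inhibited queens (SD, n = 3 each), a log2 change of 0.53 (95% interval -0.01 to 1.07, unadjusted p = 0.052, adjusted p = 0.49, edgeR). Recovery queen 3 carried much of this value, which was 0.30 without it. In inhibited vs. laying queens the log2 change of miR-71 was -0.38 (95% interval -0.85 to 0.10, adjusted p = 0.47). miR-13b gave 0.50 in recovery vs. inhibited queens (95% interval -0.24 to 1.24, adjusted p = 0.68) and -0.085 in inhibited vs. egg-laying queens (95% interval -0.82 to 0.65). For miR-2 the 4 comparisons among mated queens gave log2 changes of -0.10 to 0.12, and their 95% intervals lay between -0.37 and 0.39. By normalized CPM, 0 of 4 members separated all inhibited from all laying queens, against 8.49% of all miRNAs. By deposited TPM, 1 of 4 did, miR-71, with at most 5982 TPM in inhibited queens and at least 6085 TPM in laying queens, against 9.43% of all miRNAs. It also separated inhibited from egg-laying queens by TPM, against 32.1%.

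**Figure D3:**
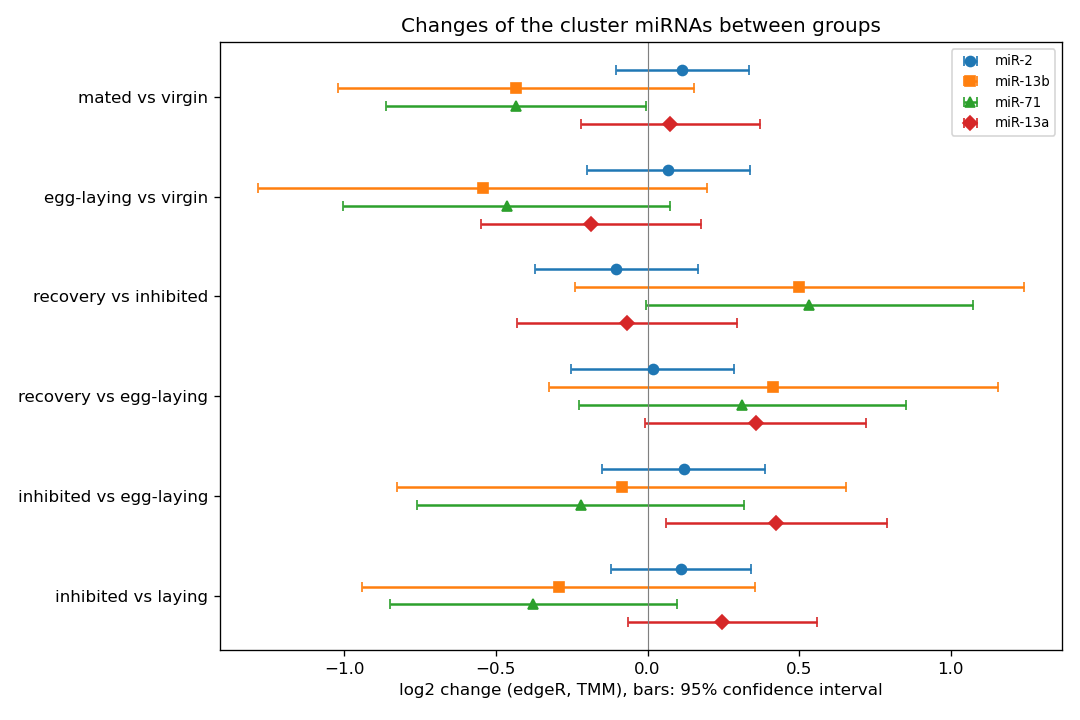
Log2 change (horizontal axis, edgeR with TMM) of miR-2, miR-13b, miR-71 and miR-13a in 6 comparisons (rows), with bars for the 95% confidence interval. The intervals of miR-2 are the narrowest and include 0 in each row, those of miR-13b are the widest, and those that exclude 0 are miR-13a in inhibited vs. egg-laying queens (0.06 to 0.79) and miR-71 in mated vs. virgin queens (-0.86 to -0.01), neither of which passed the adjusted threshold.

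A ratio of 2 miRNAs in the same library does not depend on how libraries are scaled, and was used to ask whether members of the cluster moved apart. Each of the 6 pairs of members was read with the more abundant member below the line, and each test was adjusted over all tested miRNAs per that member. miR-71 per miR-2 was 0.285, 0.340 and 0.539 in the recovery queens, 0.239, 0.253 and 0.248 in the inhibited queens and 0.303, 0.272 and 0.361 in the egg-laying queens, against 0.383, 0.642 and 0.330 in the virgin queens. It fell by 0.50 on the log2 scale in mated vs. virgin queens (SE 0.21, adjusted p = 0.045, limma), while 73.3% of the 105 miRNAs changed per miR-2 in that comparison. This was the 1 pair of 6 that passed, and 53.3% of miRNAs changed per miR-13b and 57.1% per miR-71. The call was lost without virgin queen 2, at -0.22 (adjusted p = 0.29), and without any of 8 other queens, with adjusted p-values up to 0.073. It was also lost with miR-71 as the denominator (adjusted p = 0.072). In egg-laying vs. virgin queens 0 of 6 pairs passed, against 71.4% of miRNAs per miR-2, 47.6% per miR-13b and 51.4% per miR-71. There miR-71 per miR-2 changed by -0.48 (SE 0.26, adjusted p = 0.11), by -0.20 without virgin queen 2 (adjusted p = 0.42) and by -0.68 without virgin queen 3 (adjusted p = 0.035, limma). In that comparison 0 of 3 ratios to miR-2 separated these groups without overlap, against 75.2% of miRNAs per miR-2.

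Among the mated queens the ratio of miR-71 to miR-2 was lowest in the inhibited queens, where it averaged 0.247 ± 0.007, against 0.350 ± 0.098 over the 6 laying queens (SD). The 3 inhibited queens lay below all 6 laying queens, which held for 8.57% of miRNAs per miR-2. Groups did not overlap for 28.6% of miRNAs per miR-2 in inhibited vs. egg-laying queens and for 15.2% both in recovery vs. inhibited and in recovery vs. egg-laying queens. The log2 change was -0.46 (SE 0.23, unadjusted p = 0.058, adjusted p = 0.38, limma), so this separation did not pass. In recovery vs. inhibited queens it was 0.60 (SE 0.26, unadjusted p = 0.037, adjusted p = 0.42), and 0.34 without recovery queen 3. In the 4 comparisons among mated queens 0 of 6 pairs passed, against 0% to 0.952% of miRNAs per miR-2, 0% to 1.9% per miR-13b and 0% to 1.9% per miR-71. miR-13a per miR-71 was 0.629, 0.599 and 0.716 in the inhibited queens, against 0.513, 0.468 and 0.345 in the recovery queens and 0.367, 0.577 and 0.328 in the egg-laying queens. The inhibited queens thus lay above all laying queens, and 21% of miRNAs per miR-71 separated these groups. The log2 change in inhibited vs. laying queens was 0.61 (SE 0.28, unadjusted p = 0.036, adjusted p = 0.24, limma), with an adjusted p of 0.047 when virgin queen 2 was left out of the fit. miR-13a per miR-13b also separated these groups, at 0.351 to 0.390 in inhibited and 0.205 to 0.326 in laying queens. Its log2 change was 0.50 (SE 0.38, unadjusted p = 0.18, adjusted p = 0.81, limma). The share of all miRNAs per miR-13b that separated these groups is not given here.

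miR-13b per miR-2 averaged 0.656 ± 0.179 in recovery queens, 0.433 ± 0.047 in inhibited queens, 0.498 ± 0.167 in egg-laying queens and 0.764 ± 0.397 in virgin queens (SD, n = 3 each). miR-13a per miR-2 averaged 0.164 ± 0.020, 0.160 ± 0.015, 0.129 ± 0.025 and 0.154 ± 0.022 in these groups. In mated vs. virgin queens their log2 changes were -0.46 (SE 0.27, adjusted p = 0.13, limma) and -0.037 (SE 0.16, adjusted p = 0.84). That of miR-13b per miR-2 was -0.065 without virgin queen 2 (adjusted p = 0.79) and -0.76 without virgin queen 3 (adjusted p = 0.017, limma).

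**Figure D4:**
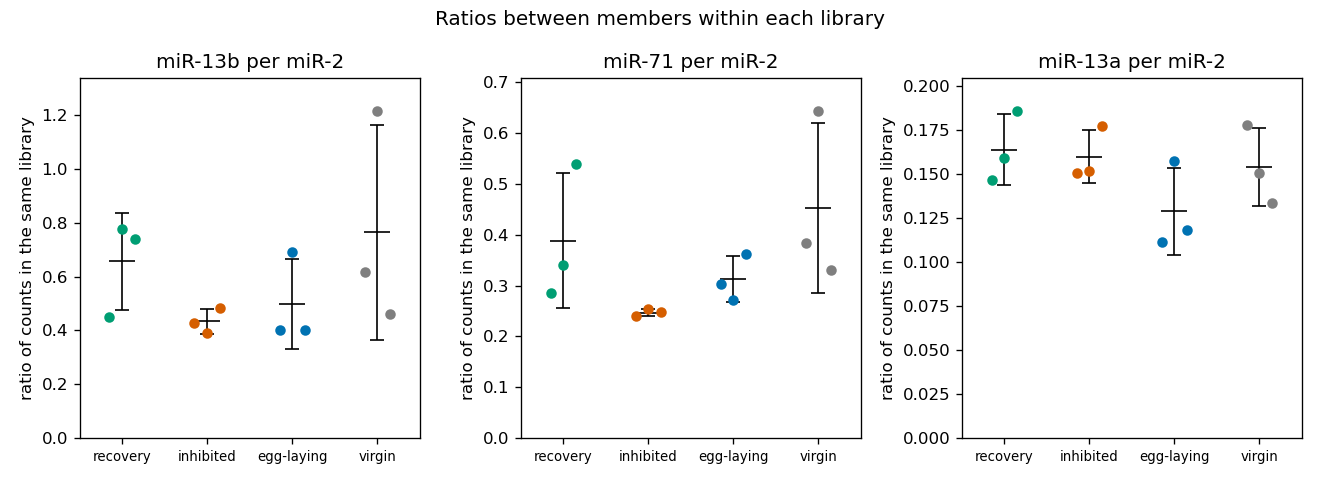
Ratio of the counts of miR-13b, miR-71 and miR-13a to the count of miR-2 in the same library (linear axes from 0) in recovery, inhibited, egg-laying and virgin queens, with 1 point per queen and mean ± SD (n = 3). miR-71 per miR-2 lies between 0.239 and 0.253 in the inhibited queens, below every other queen, and reaches 0.642 in virgin queen 2.

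miR-2b, whose hairpin overlaps Mir2-1 but which the name rule does not take in, was called in both comparisons with virgin queens. It had 8270, 9619 and 8206 normalized CPM in the recovery queens, 11206, 8558 and 8594 in the inhibited queens and 7671, 7919 and 8401 in the egg-laying queens, against 11411, 11931 and 11831 in the virgin queens. The mated queens all lay below the virgin queens, and such a lack of overlap was seen for 61.3% of all 106 miRNAs. Of all miRNAs edgeR called 78.3% in mated vs. virgin queens and 71.7% in egg-laying vs. virgin queens. With TMM the log2 change of miR-2b was -0.43 in mated vs. virgin queens (SE 0.11, adjusted p = 0.0035, edgeR) and -0.55 in egg-laying vs. virgin queens (SE 0.14, adjusted p = 0.0038). The change in mated vs. virgin queens was close to that of miR-13b and miR-71 in size, with a smaller spread between queens, and a difference from them was not tested. With library size only the changes of miR-2b were -0.0036 and 0.0053, and with totals that leave out the 5 top miRNAs the call in mated vs. virgin queens was lost (-0.26, adjusted p = 0.078). The ratio of miR-2b to miR-2, which needs no scaling, was 0.420 ± 0.026 in mated queens (SD, n = 9) and 0.614 ± 0.010 in virgin queens (SD, n = 3), without overlap, as for 63.8% of miRNAs per miR-2. The ratio of counts of these relatives thus separated mated from virgin queens, as most miRNAs per miR-2 did. No test of this pair is given, and how shared reads were split between them is uncertain. The size and the call of the change of miR-2b alone depended on the scaling.

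The profiles of the members over the 12 queens were compared as the root mean square difference of log2 normalized CPM, each centred on its own mean, as a description over libraries that share their scaling. Among all 105 other miRNAs the profile nearest to miR-13b was that of miR-71, at 0.33, whereas miR-13b was the 6th nearest to miR-71. Both had their highest value in virgin queen 2, and no distance without that queen was computed. miR-2 was the 2nd nearest to miR-13a, at 0.22, and miR-13a the 4th nearest to miR-2. miR-13b and miR-2 were farther apart, at 0.49, rank 36 of 105 from miR-2. Of miRNAs outside the cluster, the nearest to miR-2 were miR-6037, miR-12 and miR-11, at 0.16, 0.17 and 0.21. The nearest to miR-13a were miR-12, miR-305 and miR-283, at 0.16, 0.22 and 0.23. Those nearest to miR-13b were miR-283, miR-305 and miR-7, at 0.33, 0.34 and 0.37, and those nearest to miR-71 were miR-6005-5p, miR-989 and miR-283, at 0.29, 0.31 and 0.32. The median over all outside miRNAs was 0.69 to 0.85 for the 4 members.

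LOC726544, the gene that spans all the hairpins, had 10 transcripts in the mRNA table, of which 9 passed the filter of a mean of 0.1 FPKM. The RefSeq table gives no strand, so whether the hairpins are read from its transcripts was not determined here. In mated vs. virgin queens limma called 5 of the 9 higher and 1 lower at an adjusted p under 0.05, and in egg-laying vs. virgin queens the same numbers, against 61% and 55.6% of all 17924 transcripts. The sum over its transcripts was 149 to 176 FPKM in mated queens and 98.6 to 111 FPKM in virgin queens. This sum was not tested or rescaled, and rescaling libraries to the same FPKM sum reduced the rises of single transcripts given below. The most abundant by the mean of all queens, XM_006557381.1, had 52.4, 54.1 and 59.1 FPKM in the recovery queens, 67.6, 55.9 and 60.9 in the inhibited queens and 54.2, 44.2 and 55.4 in the egg-laying queens, against 38.1, 40.4 and 32.7 in the virgin queens. It rose by 0.58 in mated vs. virgin queens on the log2(FPKM + 1) scale (SE 0.09, adjusted p = 0.00016, limma), a call that was lost when libraries were rescaled to the same FPKM sum (0.10, adjusted p = 0.27). XM_006557380.1 averaged 53.7 ± 4.3 FPKM in mated queens (SD, n = 9) and 30.9 ± 5.3 in virgin queens (SD, n = 3), with a log2 change of 0.79 (SE 0.10, adjusted p = 2.65e-05). XM_006557385.1 averaged 31.5 ± 3.0 FPKM in mated queens and 17.0 ± 2.0 in virgin queens, with a log2 change of 0.85 (SE 0.09, adjusted p = 8.15e-06). XM_006557386.1 averaged 7.93 ± 0.98 FPKM in mated queens and 4.26 ± 0.80 in virgin queens, with a log2 change of 0.77 (SE 0.12, adjusted p = 0.00014). When libraries were rescaled to the same FPKM sum, these changes were 0.32 for XM_006557380.1, 0.39 for XM_006557385.1 and 0.36 for XM_006557386.1, still past the threshold (adjusted p = 0.0067, 0.0023 and 0.030).

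Against these, XM_006557384.1 was lower after mating. It had 2.40, 3.86 and 4.35 FPKM in the recovery queens, 6.53, 5.58 and 7.76 in the inhibited queens and 4.51, 3.53 and 5.51 in the egg-laying queens, against 14.4, 10.4 and 16.7 in the virgin queens, and fell by 1.36 on the log2 scale in mated vs. virgin queens (SE 0.18, adjusted p = 5.17e-05, limma). Among mated queens it averaged lowest in the recovery queens, with a log2 change of -0.77 vs. inhibited queens that did not pass (SE 0.23, unadjusted p = 0.0057, adjusted p = 0.15). XM_006557376.1 was listed at 0 or 0.0011 FPKM in the virgin queens and between 0.0024 and 3.17 FPKM in the mated queens. In the 4 comparisons among mated queens limma called 0 of the 9 transcripts, with at most 1 at an unadjusted p under 0.05, against 0.0502% to 0.658% of all transcripts. FPKM of transcripts of 1 gene are shares that Cufflinks estimated from largely common exons, so single transcripts are less certain than the sum.

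**Figure D5:**
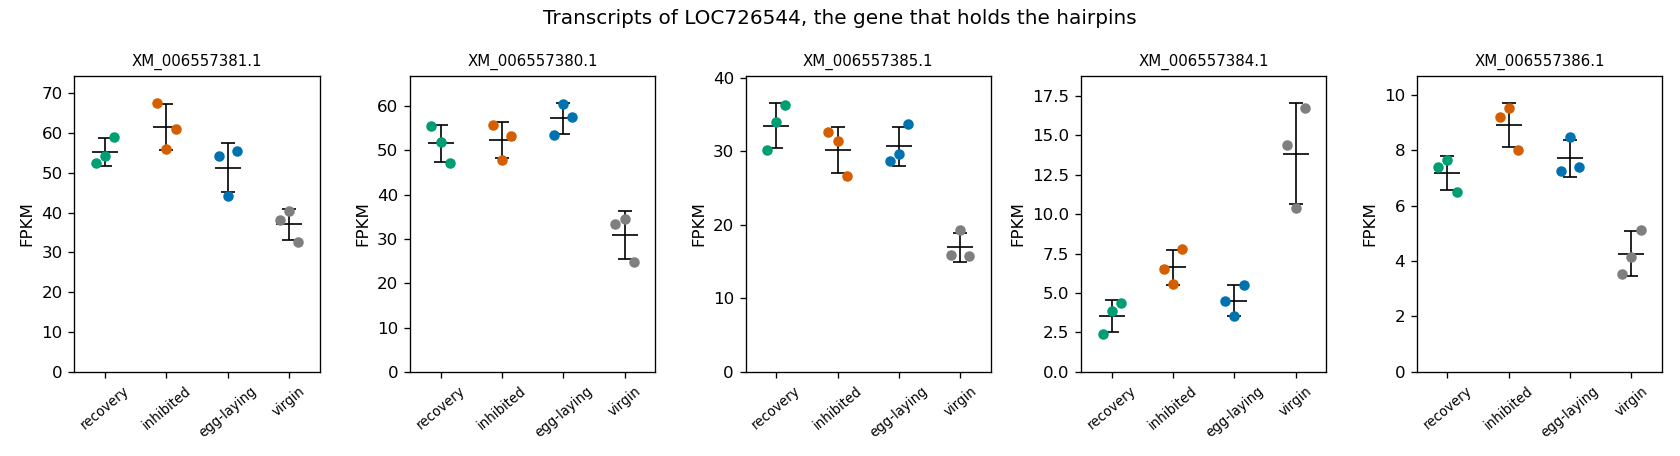
FPKM (linear axes from 0) of the 5 most abundant transcripts of LOC726544 in recovery, inhibited, egg-laying and virgin queens, with 1 point per queen and mean ± SD (n = 3). The virgin queens lie below the mated queens for XM_006557381.1, XM_006557380.1, XM_006557385.1 and XM_006557386.1 and above them for XM_006557384.1 (10.4 to 16.7 FPKM, against 2.40 to 7.76).

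mRNAs tied to these miRNAs were taken from fixed lists. Of 3 family targets known from other insects, Kr-h1 was matched and awd and fng were not. Kr-h1 (NM_001242470.1) had 90.6, 95.1 and 93.7 FPKM in the recovery queens, 103, 95.4 and 85.7 in the inhibited queens and 91.5, 81.6 and 93.0 in the egg-laying queens, against 51.2, 71.9 and 68.9 in the virgin queens. It rose by 0.53 on the log2(FPKM + 1) scale in mated vs. virgin queens (SE 0.10, adjusted p = 0.00053, limma) and by 0.48 in egg-laying vs. virgin queens (SE 0.12, adjusted p = 0.0050). Both calls were lost when libraries were rescaled to the same FPKM sum (0.053 and -0.014). Among mated queens its log2 changes lay between -0.020 and 0.092.

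Of 7 listed genes of miRNA processing and action, Dcr-1, the Dicer enzyme that cuts miRNAs from their precursors, was matched. It averaged 13.4 ± 0.9 FPKM in mated queens (SD, n = 9) and 15.9 ± 1.1 in virgin queens (SD, n = 3), and fell by 0.23 on the log2 scale (SE 0.07, adjusted p = 0.015, limma). Without virgin queen 2 this call was lost (-0.18, adjusted p = 0.054), and with libraries rescaled to the same FPKM sum Dcr-1 fell by 0.69 (adjusted p = 5.87e-06, limma).

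The study's network joined 5 genes to miR-13a, of which 3 were matched here. These genes were chosen by the study on the same samples, so they are no independent evidence of a direction. LOC724487 averaged 97.2 ± 10.3 FPKM in mated queens (SD, n = 9) and 75.4 ± 7.0 in virgin queens (SD, n = 3), a log2 change of 0.36 (SE 0.07, adjusted p = 0.00095, limma) that turned to -0.12 when libraries were rescaled to the same FPKM sum. LOC551273 averaged 35.5 ± 5.3 FPKM in mated queens and 41.2 ± 1.7 in virgin queens, a log2 change of -0.22 (SE 0.08, adjusted p = 0.040) that was lost without any of 7 queens. LOC551461 averaged 2.56 ± 0.67 FPKM in mated queens and 3.19 ± 0.51 in virgin queens, a log2 change of -0.25 that did not pass (SE 0.13, adjusted p = 0.12). In recovery vs. inhibited queens their log2 changes were 0.29, -0.32 and -0.58 (adjusted p = 0.16, 0.19 and 0.13). Counting the most abundant transcript of LOC726544 with Kr-h1, Dcr-1 and these genes, 5 of 6 listed mRNAs passed in mated vs. virgin queens. This was against 61% of all 17924 transcripts, and 3 of 6 passed without virgin queen 2. In each of the 4 comparisons among mated queens 0 of 6 passed, against 0.0502% to 0.658% of all transcripts.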

How the data were processed

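Small RNA and mRNA libraries were made from the ovaries of 12 queens. For each small RNA library the authors deposited counts of reads per miRNA, obtained with Bowtie on Amel_4.5 and miRBase and not normalized, and deposited TPM values, which equal the count per library total on a fixed scale. For each mRNA library they deposited FPKM values per transcript from TopHat and Cufflinks, whose depth per library is not given in the sources used here.

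Counts were tested with edgeR 4.0.16 under R 4.3.3 (TMM, quasi-likelihood test, at least 10 counts in at least 3 libraries), ratios with limma 3.58.1 on log2 ratios of counts with 0.5 added, and mRNAs with limma on log2(FPKM + 1) for a mean FPKM of at least 0.1. All 12 libraries entered each fit, 1 coefficient per group. Tests were two-sided, with Benjamini-Hochberg adjustment over all features of a comparison and a threshold of 0.05. Tests were checked on simulated data, where edgeR recovered 17 of 18 miRNAs changed by 1 and 14 of 14 changed by 2 on the log2 scale in mated vs. virgin queens, among 103 miRNAs. The ratio test recovered 17 of 18 and 13 of 16 among 105, and limma on FPKM 71 of 100 and 92 of 100 among 17924 transcripts. Smaller changes, such as those of the members and their ratios, were not simulated, and calls among unchanged features are not given here. A gene was read from its most abundant transcript, and 55.6% of transcripts were matched to a RefSeq gene. Named features were all members, the 3 nearest profiles of each, miR-2b and LOC726544 as overlapping genes, and the listed mRNAs. Members and lists were chosen with earlier results of these data known. Alternatives were DESeq2 1.42.0, other scalings, filters and pseudocounts, a block for the replicate number, and leaving out each library. Within groups, no 2 libraries were alike within sampling noise. Same-numbered libraries did not deviate together (correlations of -0.23 to 0.23 for miRNAs), so numbers were not taken to pair the samples. Figures were drawn with Python 3.11.15 and matplotlib 3.10.9.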

Additional observations from a re-analysis of the deposited data

Results flagged for a closer look

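Among the 26 sets of 6 laying or 9 mated queens examined, 4 held a queen that stood apart for the range of its set. Chance flags about 1 in 20 single sets. The sets share queens and counts, so they are not independent and the 4 cannot be set against that share. Recovery queen 3 had 10076 normalized CPM of miR-71, far above the other mated queens. Its ratio of miR-71 to miR-2, 0.539, was far above the others both among the 6 laying queens and among the 9 mated queens. Recovery queen 2 had 9619 normalized CPM of miR-2b, apart from the other laying queens (7671 to 8401) by their narrow range. Without recovery queen 3 the log2 change of miR-71 was -0.51 in mated vs. virgin queens (adjusted p = 0.026, edgeR) and 0.30 in recovery vs. inhibited queens.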

How the results depend on the processing

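With 3 queens per group the intervals of miR-13b and miR-71 allow sizeable changes that could not be detected, and the least abundant member had 463 counts in the smallest library. Against virgin queens, directions depended on scaling, which shifted all miRNAs together, and on virgin queen 2. The cause of each change below was not tested.

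In egg-laying vs. virgin queens 1 member, miR-71, was called lower with RLE size factors and with no count filter. A different member, miR-2, was called higher there with library size only and with TPM in limma. In mated vs. virgin queens 1 member, miR-71, was called lower with RLE size factors, with at least 100 counts and with DESeq2. With no count filter 2 members, miR-13b and miR-71, were called lower there. With library size only and with TPM in limma 2 others, miR-2 and miR-13a, were called higher there. Of all miRNAs, RLE size factors called 35 higher and 43 lower in egg-laying vs. virgin queens, and 37 and 47 in mated vs. virgin queens. DESeq2 called 35 higher and 47 lower in mated vs. virgin queens. Library size only called 63.2% of all miRNAs in egg-laying vs. virgin and 75.5% in mated vs. virgin queens. Shares for the other settings are not given here. Leaving out 1 library gave 0 to 2 members in each of these comparisons. No alternative called a member in the 4 comparisons among mated queens. The 6 ratios gave 0 to 2 calls in egg-laying vs. virgin and in mated vs. virgin queens and 0 to 1 in inhibited vs. laying queens when 1 library was left out, and 1 added count in place of 0.5 changed no call.

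miR-2 reversed in egg-laying vs. virgin queens with RLE (-0.028), no filter (-0.037), only the groups compared (-0.069) and DESeq2 (-0.028), and in mated vs. virgin queens with no filter (-0.0096). In inhibited vs. egg-laying queens it reversed with library size only (-0.068) and TPM (-0.074). In recovery vs. egg-laying queens it reversed with RLE (-0.012), library size only (-0.18), totals that leave out the 5 top miRNAs (-0.056), only the groups compared (-0.023), TPM (-0.19) and DESeq2 (-0.012). miR-13b reversed with TPM in egg-laying vs. virgin (0.081) and mated vs. virgin queens (0.077). miR-71 reversed in egg-laying vs. virgin queens with library size only (0.089) and TPM (0.14), and in mated vs. virgin queens with TPM (0.036). miR-13a reversed in egg-laying vs. virgin queens with library size only (0.37), totals that leave out the 5 top miRNAs (0.00071) and TPM (0.36), and in mated vs. virgin queens with RLE (-0.040), no filter (-0.048) and DESeq2 (-0.041). miR-2b reversed in egg-laying vs. virgin queens with library size only (0.0053) and TPM (0.0034), and in recovery vs. egg-laying queens with library size only (-0.077) and TPM (-0.084).

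A block for the replicate number turned miR-13b to 0.015 in inhibited vs. egg-laying queens and left miR-71 in mated vs. virgin queens at -0.42 (adjusted p = 0.076, edgeR). Of same-numbered pairs of libraries, 4 of 18 correlated above 0.1 for miRNAs. The block changed 1 call among the mRNAs, that of LOC551273 in mated vs. virgin queens (-0.22, adjusted p = 0.054, limma), and no call of a member or ratio.

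When 1 library was left out, the log2 changes that crossed 0 had these ranges. Those of miR-13b were -0.71 to 0.047 in mated vs. virgin and -0.27 to 0.24 in inhibited vs. egg-laying queens. Those of miR-13a were -0.018 to 0.14 in mated vs. virgin and -0.13 to 0.0045 in recovery vs. inhibited queens. miR-2 ranged from -0.041 to 0.071 in recovery vs. egg-laying queens, and miR-2b from -0.20 to 0.020 in recovery vs. inhibited queens. miR-13a per miR-2 ranged from -0.13 to 0.071 in mated vs. virgin and from -0.062 to 0.11 in recovery vs. inhibited queens. miR-13a per miR-71 ranged from -0.076 to 0.42 in egg-laying vs. virgin and from -0.078 to 0.33 in recovery vs. egg-laying queens, and miR-13b per miR-2 from -0.29 to 0.11 in inhibited vs. egg-laying queens.

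Of the mRNAs, 5 of 6 listed passed in mated vs. virgin queens, against 61% of all transcripts. The number was 3 when libraries were rescaled to the same FPKM sum and 3 to 5 without 1 library. Shares of all transcripts in those settings are not given here. That rescaling reversed Kr-h1 (-0.014), XM_006557381.1 of LOC726544 (-0.031) and LOC724487 (-0.16) in egg-laying vs. virgin queens, LOC724487 (-0.12) in mated vs. virgin queens and Dcr-1 (0.00052) in recovery vs. egg-laying queens. It also called LOC551461 lower in mated vs. virgin queens (-0.62, adjusted p = 0.0026, limma), and Dcr-1 (-0.64, adjusted p = 7.11e-05), LOC551273 (-0.57, adjusted p = 0.00095) and LOC551461 (-0.57, adjusted p = 0.016) lower in egg-laying vs. virgin queens. Without 1 library, Kr-h1 ranged from -0.089 to 0.042 in recovery vs. inhibited and from -0.0062 to 0.12 in inhibited vs. laying queens, and Dcr-1 from -0.055 to 0.021 in recovery vs. egg-laying queens. LOC551273 ranged from -0.13 to 0.015 in egg-laying vs. virgin and from -0.15 to 0.018 in inhibited vs. egg-laying queens. XM_006557380.1 of LOC726544 ranged from -0.10 to 0.0074 in inhibited vs. laying and from -0.082 to 0.040 in recovery vs. inhibited queens, and XM_006557385.1 from -0.080 to 0.061 in inhibited vs. egg-laying and from -0.14 to 0.00049 in inhibited vs. laying queens.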
